A study of Mus musculus with 138 samples.

Results

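The libraries described here compare mouse 2-cell embryos that received control immunoglobulin (IgG) with embryos that were not injected, both from the first collection of a TrimAway experiment. TrimAway removes a protein by bringing an antibody and the ubiquitin ligase TRIM21 together in the living cell. The wider study asked what loss of the chromatin remodeller SMARCA5 does to transcription in the early embryo, and it has 138 libraries. The members were chosen by label and depth: libraries titled as IgG or uninjected TrimAway controls of replicate 1, with at least 100000 counts. This kept 20 libraries, 10 of 11 labelled IgG and 10 of 11 labelled uninjected.

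Both groups carry the tissue label of the 2-cell stage, and their genotype labels read IgG and No injection ctrl. Per the series' design text, these are wild-type embryos taken a day or more after injection at the zygote stage. The same text calls the collections technical replicates and describes each as its own pool of embryos. Strain, age, the kind and dose of IgG and the number of embryos per well are not given in the sources used here. The groups differ by injection and by antibody together, and these cannot be told apart, because no group received an injection without antibody. All 20 libraries come from 1 sequencing lane and 1 collection, so each p-value below measures the spread between libraries of that collection only.

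At the 2-cell stage the mouse embryo switches from RNA stored in the egg to RNA made from its own genome. A short-lived burst of genes marks this switch. Among them are Zscan4, a family of zinc finger genes tied to telomere upkeep, and Tcstv, Tdpoz, Usp17l and Pramel-type genes, many of them in clusters of near-identical copies. At the same time maternal transcripts such as those of the zona pellucida and oocyte growth factors are broken down.

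Promoters of 3 genes of this burst are shown because the results below turn on that group. They run from 250 bases before to 50 after the RefSeq start, on build GRCm38.p6, 5′ to 3′ on the gene's strand. Capitals mark matches to TATAAA, a core promoter element, and to the homeodomain core TAATCC, both searched on either strand. They are Zscan4f at chr7:11397665-11397964 on the plus strand, Tdpoz1 at chr3:93676234-93676533 on the minus strand and Zfp352, a zinc finger gene, at chr4:90218570-90218869 on the plus strand.
Zscan4f: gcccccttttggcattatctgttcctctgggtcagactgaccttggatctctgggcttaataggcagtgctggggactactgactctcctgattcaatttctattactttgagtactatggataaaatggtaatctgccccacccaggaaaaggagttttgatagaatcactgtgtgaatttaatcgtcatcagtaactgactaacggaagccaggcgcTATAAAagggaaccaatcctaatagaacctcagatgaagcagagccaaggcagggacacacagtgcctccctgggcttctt
Tdpoz1: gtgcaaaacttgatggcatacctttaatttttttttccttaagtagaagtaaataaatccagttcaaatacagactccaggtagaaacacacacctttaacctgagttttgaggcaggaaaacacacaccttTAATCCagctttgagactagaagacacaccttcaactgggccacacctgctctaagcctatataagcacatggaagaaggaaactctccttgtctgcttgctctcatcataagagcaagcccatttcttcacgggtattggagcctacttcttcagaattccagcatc
Zfp352: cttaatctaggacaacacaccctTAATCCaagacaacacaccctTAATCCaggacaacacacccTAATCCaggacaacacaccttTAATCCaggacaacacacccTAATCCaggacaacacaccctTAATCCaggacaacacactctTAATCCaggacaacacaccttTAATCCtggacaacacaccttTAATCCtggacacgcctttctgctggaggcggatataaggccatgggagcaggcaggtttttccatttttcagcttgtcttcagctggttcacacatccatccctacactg

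The Zscan4f promoter holds 1 TATAAA, the Tdpoz1 promoter 1 TAATCC and the Zfp352 promoter 9 copies of TAATCC. Of the 45 burst genes tested below, 17 had a promoter in the RefSeq table. TATAAA was in 8 of these 17 (47.1%) and in 14.2% of all 27025 promoters of the same length, and TAATCC was in 6 (35.3%) and in 7.2%. The Zscan4 promoters are near copies of each other: that of Zscan4f matched that of Zscan4c at 275 of 277 aligned bases. Near copies such as Zscan4d and Zscan4f, each with 1 TATAAA, count separately in the share of the 17 promoters. Reads of such genes may be split between copies or counted for more than 1, so values for single Zscan4, Tcstv, Tdpoz, Usp17l and Pramel genes are uncertain.

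Depth ran from 236128 to 3170817 counts per library in the IgG group and from 365597 to 2351642 in the uninjected group. Markers of the 2-cell embryo were present in every library. Their summed level was 1060 to 6657 CPM (counts relative to library size) in IgG and 869 to 2010 CPM in uninjected libraries. Marker sums and the CPM given for 3 counts use total counts only, whereas all other CPM are also scaled by TMM. Of the 17 cumulus and granulosa cell markers, Inha, Inhbb and Lhcgr were at 0 in all 20 libraries, Tnfaip6 and Amhr2 had over 3 counts in at least 10 of them, and the summed level was 19.2 to 124 CPM in IgG and 42.7 to 121 CPM in uninjected libraries. The 9 blood cell markers in the table summed to 3.69 to 73.8 CPM in IgG, highest in well A10, and to 16.4 to 35.3 CPM in uninjected libraries, with Ptprc, Cd3e, Hbb-b1 and Hbb-b2 at 0 throughout and Hba-a1 and Csf1r over 3 counts in at least 10 libraries. The 15 trophectoderm and blastocyst markers summed to 174 to 342 CPM in IgG and 209 to 344 CPM in uninjected libraries. The 12 oocyte markers summed to 831 to 2249 CPM in IgG and to 1380 to 3275 CPM in uninjected libraries.

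Trim21, the gene of the ligase, had 0 counts in all 10 IgG libraries, where 3 counts would correspond to 0.946 to 12.7 CPM. In uninjected libraries it had at most 3 counts (1.94 CPM). In collection 3, by contrast, 8 of 10 IgG libraries had Trim21 counts, with a median of 298 CPM and a highest value of 2027 CPM, and 0 of 5 uninjected libraries did. The IgG embryos of collection 1 thus carried no detectable Trim21 RNA at this depth. Smarca5, the target of the study, was at 372, 698 and 1584 CPM (lowest, median and highest) in IgG and at 436, 565 and 946 CPM in uninjected libraries. The groups overlapped, and the log2 fold change of Smarca5, IgG minus uninjected, came to 0.42 in edgeR (SE 0.24, adjusted p = 0.596). Smarca1, the other ISWI ATPase, had a median of 0 CPM in both groups and was not tested.

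In the IgG group the libraries in wells A10 and H09 stood apart, and this touches every result below. The similarity of a library was taken as its mean Spearman correlation, over the tested genes, with the other libraries of its group. It was 0.579 for A10 and 0.691 for H09, 0.768 to 0.816 for the other 8 IgG libraries and 0.825 to 0.883 for the uninjected ones. The values of the other 8 IgG libraries include their correlations with A10 and H09. Mitochondrially encoded transcripts took 33.8% of the counts in A10 and 27.6% in H09, against at most 17.5% in the other IgG and 17.9% in the uninjected libraries. Neither was shallow, with 1708053 and 963375 counts. No label tells these wells from the others, so they were kept, and results are given with and without them.

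**Figure D1:**
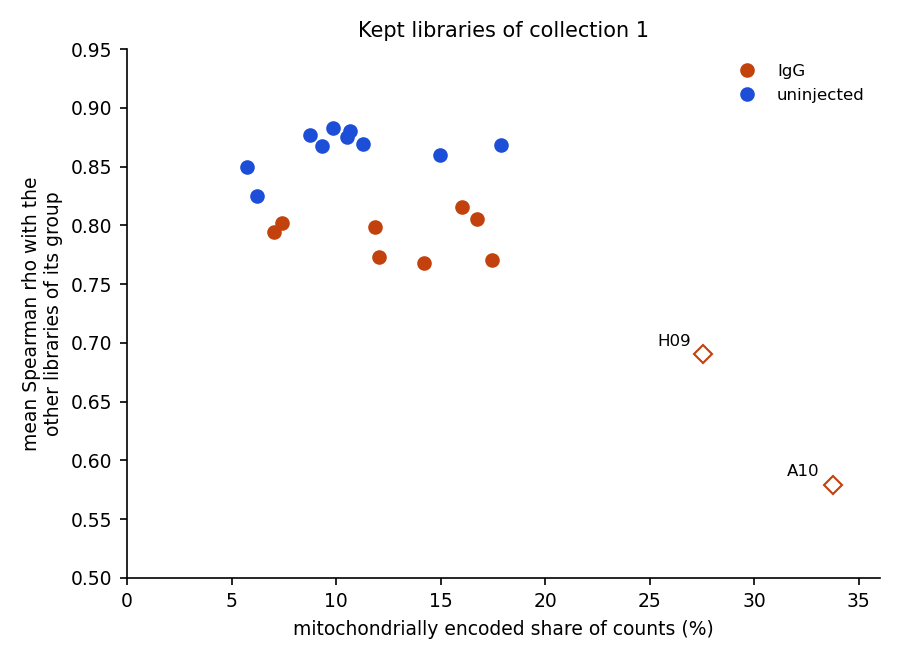
Each point is 1 kept library of collection 1: the x axis is the share of counts from mitochondrially encoded genes (%), the y axis the mean Spearman correlation with the other libraries of its group. Open diamonds are IgG wells A10 and H09, at 0.579 and 0.691, below all others. All 10 uninjected libraries lie above the other 8 IgG libraries, whose values include their correlations with A10 and H09. Computed without that pair, the IgG values reach 0.857 and overlap the uninjected ones, whose lowest is 0.825.

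IgG libraries were less alike than uninjected libraries. Mean similarity was 0.760 ± 0.0727 (SD, n = 10) in IgG and 0.866 ± 0.0172 (SD, n = 10) in uninjected libraries, and 0 of 10 IgG libraries lay above the uninjected median. The difference of -0.11 passed a two-sided permutation test (p = 1e-05, the smallest that 100000 resamples can give; adjusted over 4 library-level values, 4e-05). Libraries of a group share their pairwise correlations, and the resamples shuffled fixed values instead of computing similarity anew. The p-values for similarity may therefore be too small. Without A10 and H09 the IgG mean was 0.835 and the difference -0.031 (permutation p = 0.00806, adjusted 0.0322). The IgG values then reached 0.857 and overlapped the uninjected ones, whose lowest was 0.825. That lowest value was in D09, the shallowest uninjected library, and the next was 0.850 in F08. Similarity used all counts of each library and was not taken at equal depth. Gene by gene, the median SD of log2(CPM + 1) over 3631 genes was 0.707 in IgG and 0.428 in uninjected libraries. The SD was larger in IgG for 88.8% of these genes, and for 69.6% without A10 and H09.

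The other 3 library-level values did not pass the adjusted threshold of 0.05. At an equal 100000 counts, IgG libraries showed 9022 ± 574 genes and uninjected libraries 9432 ± 173 (SD, n = 10 each; permutation p = 0.0477, adjusted 0.0511). The IgG mean was 9033 without A10 and H09 and the adjusted p 0.0436. These 2 wells lay at opposite ends of all 20 libraries, with 9764 genes in A10 and 8191 in H09. The mitochondrially encoded share was 16.4% ± 8.44 in IgG and 10.5% ± 3.66 in uninjected libraries (permutation p = 0.0511, adjusted 0.0511), and 12.8% (permutation p = 0.213) in IgG without the pair. The 100 most abundant genes took 27.3% ± 8.35 and 20.99% ± 3.91 of the counts (permutation p = 0.0377, adjusted 0.0511), and 23.8% (permutation p = 0.158) in IgG without the pair. In a whole embryo, fewer cells of a kind and less RNA per cell cannot be told apart.

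Across the transcriptome, only 1 of 9558 tested genes (0.0105%) passed edgeR's quasi-likelihood test at an adjusted p under 0.05, a gene that was higher in IgG. At an unadjusted p under 0.05 there were 939 genes (9.82%), 683 higher in IgG (7.15%) and 256 lower (2.68%). No gene separated the groups without overlap in either direction. Without A10 and H09, 0 of 9952 genes passed in edgeR, with 773 at an unadjusted p under 0.05 (7.77%), 465 higher (4.67%) and 308 lower (3.09%). DESeq2 called 116 of 8986 genes (1.29%), of which 105 were higher in IgG (1.17%), and for 94 of the 116 the highest IgG value was in A10 or H09. Scaling shifted the whole distribution: its median lay at 0.04 after TMM and at -0.18 when only total counts were used.

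The gene that passed was AC165327.2 (ENSMUSG00000094649, chromosome 19, 61174686 to 61176309, minus strand, GRCm38), a protein-coding gene that GENCODE M21 names Gm7102. Its level was 73.7, 156 and 521 CPM (lowest, median, highest) in IgG and 22.0, 56.5 and 96.0 CPM in uninjected libraries. All 10 IgG libraries lay above the uninjected median and 7 above the highest uninjected library, so the groups overlapped only at their edges. Expression rose 1.89 log2 units in edgeR (SE 0.33, adjusted p = 0.0286) and 1.92 in DESeq2 (adjusted p = 5.15e-05). The value was 1.45 without A10 and H09 (edgeR adjusted p = 0.05998). Leaving out 1 of wells B10, G10 and H09 (IgG) or A09, B09, C09, E08, E09, F09, G08 and H08 (uninjected) also moved the adjusted p past 0.05, up to 0.104. The Gm7102 transcript matched 95.6% of 793 aligned bases of the transcript of Mplkip, a gene of similar sequence. Mplkip, listed as 2810021B07Rik, was chosen for this reason after its values were seen. It was at 7.90, 46.7 and 228 CPM in IgG and 6.79, 32.6 and 130 CPM in uninjected libraries (log2 fold change 0.58, SE 0.49, edgeR adjusted p = 0.763). How reads that fit both genes were counted is not given in the sources used here.

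The 9 other genes with the lowest p among those higher in IgG did not pass in edgeR (adjusted p = 0.121 each). Klhl11, a substrate adaptor of cullin ubiquitin ligases, was at 163, 328 and 478 CPM in IgG and 82.7, 136 and 287 CPM in uninjected libraries, with a log2 fold change of 1.15 (SE 0.24). Its highest libraries were B10 and G10, followed by H09 and A10, and its log2 fold change was 1.05 without A10 and H09. Clk1, a kinase of splicing factors, was at 97.9, 235 and 704 CPM in IgG and 57.0, 115 and 152 CPM in uninjected libraries (log2 fold change 1.31, SE 0.28). In 9 of 10 IgG libraries Clk1 lay above every uninjected one, the largest such count among these genes.

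Pramel6, of a PRAME-like family active in early embryos, was at 45.3, 164 and 370 CPM in IgG and 42.4, 72.0 and 115 CPM in uninjected libraries (log2 fold change 1.39, SE 0.30; 1.26 without A10 and H09). Tdpoz1, whose promoter is printed above, was at 55.4, 161 and 950 CPM in IgG and 57.7, 74.1 and 115 CPM in uninjected libraries (log2 fold change 1.62, SE 0.36). For both, 8 IgG libraries lay above all uninjected ones. The Tdpoz1 difference was 0.88 without the 2 wells. Tdpoz1 as counted runs from 93669333 to 93671569 on chromosome 3, so the printed RefSeq promoter lies upstream of the counted gene and does not adjoin it.

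Pmaip1, which encodes the death-promoting BH3 protein NOXA, was at 27.3, 50.7 and 276 CPM in IgG and 6.43, 18.7 and 48.7 CPM in uninjected libraries (log2 fold change 2.02, SE 0.46; 1.01 without A10 and H09). Hexim1, an inhibitor of the transcription elongation factor P-TEFb, was at 35.6, 66.7 and 268 CPM and at 14.8, 28.8 and 61.3 CPM (1.57, SE 0.36; 0.90 without). Lepr, the leptin receptor, was at 23.6, 73.2 and 306 CPM and at 15.4, 30.3 and 53.3 CPM (1.71, SE 0.39; 1.02 without). In these 3 genes A10 and H09 gave the highest values, and 5 or 6 of 10 IgG libraries lay above all uninjected ones. Snhg3, a host of small nucleolar RNAs that overlaps Rcc1, differed by 1.21 (SE 0.29; 1.11 without), from a median of 100 CPM in uninjected to 202 CPM in IgG libraries. Dnajb9, a chaperone of the endoplasmic reticulum, had the highest level of the group, with medians of 744 and 1616 CPM and a difference of 1.02 (SE 0.24; 0.80 without).

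The 10 genes with the lowest p among those lower in IgG had a shared pattern: 0 of 10 IgG libraries lay above the uninjected median for any of them, and no edgeR adjusted p was under 0.05 (0.121 to 0.197). Odf2, a centriole and sperm tail protein, was at 4.20, 40.0 and 49.2 CPM in IgG and 43.3, 83.9 and 133 CPM in uninjected libraries (log2 fold change -1.18, SE 0.29, and -1.18 without A10 and H09). The 12 sperm and spermatid markers, which include Odf2, summed to 33.9 to 94.4 CPM in IgG and 82.1 to 172 CPM in uninjected libraries. Only Odf2 and Ldhc of them had over 3 counts in at least 10 libraries, and Tnp2, Smcp and Spata18 were at 0 throughout. The medians of the sums were 65.8 and 132 CPM, beside 40.0 and 83.9 CPM for Odf2, which was picked for its p. These sums are not scaled by TMM, unlike the level of Odf2, and the part of the markers in this difference was not tested. Fbxw4, an F-box protein, was at 13.9, 63.6 and 86.3 CPM and at 56.3, 129 and 238 CPM (-1.18, SE 0.29). Gm17018 lies on the opposite strand within Fbxw4 and differed by -1.26. Counting by strand is not described in the sources used here, and reads of the pair cannot be told apart.

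Scml2, a Polycomb-related germline protein, was at 28.7, 93.4 and 150 CPM in IgG and 126, 162 and 214 CPM in uninjected libraries (log2 fold change -0.89, SE 0.24). Snrpg, a core spliceosome protein, was at 126, 288 and 436 CPM and at 357, 462 and 605 CPM (-0.73, SE 0.21). For Scml2, 8 of 10 IgG libraries lay below the lowest uninjected one, and for Snrpg 7 did. Wdr47 (-0.82), E330034G19Rik (-0.97), Mpdz (-1.04), a tight junction scaffold, Vamp3 (-1.30), a vesicle fusion protein, and Serpine2 (-1.09), a protease inhibitor, completed the group. The lowest values of Vamp3, Mpdz, Odf2 and Serpine2 were in well G10, the shallowest library, which was at 0 for Vamp3. These 20 genes were picked by their p, so their direction and the small overlap of the groups describe the choice.

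**Figure D2:**
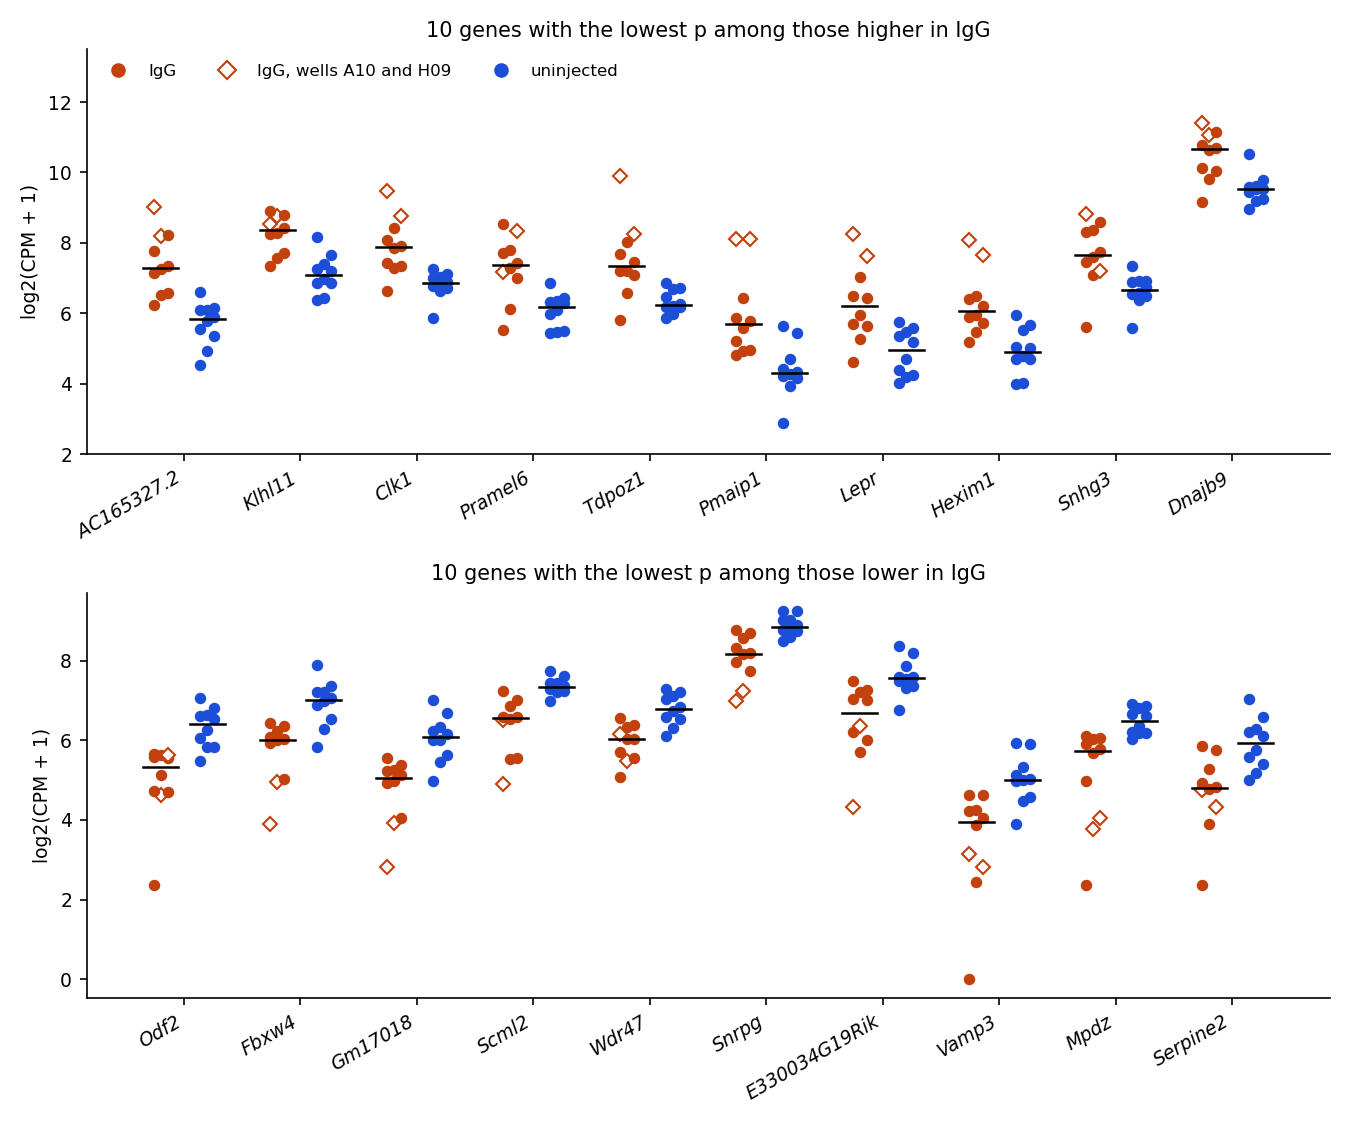
Levels of the 10 genes with the lowest p in each direction, as log2(CPM + 1) by library, for IgG (orange) and uninjected (blue) embryos of collection 1; bars are medians and open diamonds are wells A10 and H09. Among the genes higher in IgG, A10 and H09 set the top of the range for Clk1, Tdpoz1, Pmaip1, Lepr and Hexim1; in edgeR only AC165327.2 passed.

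The group with the largest median difference of the lists was the burst of 2-cell activation genes. Of 73 genes listed, 66 were in the table and 45 were tested: 44 of 45 had a log2 fold change above 0, against 54% of all tested genes (5163 of 9558). The median was 1.97, against 0.04 for all genes. None passed in edgeR, and 39 were higher at an unadjusted p under 0.05 (86.7%, against 7.15% of all genes) and 0 lower. DESeq2 called 17, all higher in IgG, where it called 1.17% of all genes higher. For all 17 the highest IgG value was in A10 or H09. The 45 are those past a filter on low counts, which high libraries help a gene to pass, and 21 others in the table did not pass it.

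Much of this difference lay in 2 libraries. The mean log2(CPM + 1) over the list was 7.56 in A10 and 6.50 in H09, then at most 4.80 in the other 8 IgG libraries, whose lowest was 3.20. Uninjected libraries ran from 2.92 to 4.21 with a median of 3.41. In the IgG group 7 of 10 libraries lay above the highest uninjected library and 9 above the uninjected median. On the plate the groups filled different columns except column 9, where the 6 uninjected libraries ran from 3.25 to 4.21 and the IgG libraries G09 and H09 were at 4.27 and 6.50. The highest IgG value was in A10 or H09 for 40 of the 45 genes (88.9%), against 37.5% of all tested genes. With the pair left out, 41 of 45 were above 0 (50.6% of all genes were), the median was 0.79 and 22 had an unadjusted p under 0.05, while 0 of 45 passed in edgeR. Leaving out A10 alone gave a median of 1.07 and leaving out H09 alone 1.63.

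Of the members that follow, all but Zscan4f and B020004J07Rik were picked for their role or rank after their values were seen. Zscan4f was at 1.02, 11.7 and 981 CPM in IgG and 1.22, 5.95 and 13.6 CPM in uninjected libraries. Its highest value was in H09, and without the 2 wells its highest was 69.3 CPM. Its log2 fold change was 4.97 (SE 1.15, edgeR adjusted p = 0.121) and 1.51 without A10 and H09 (unadjusted p = 0.0158, adjusted 0.530). Zscan4d was at 10.2, 58.2 and 1347 CPM in IgG and 5.42, 15.7 and 74.6 CPM in uninjected libraries, with the top value in A10 (log2 fold change 3.10; 0.94 without). Zscan4c reached 288 CPM in A10 against a median of 4.96 CPM in IgG and 1.47 CPM in uninjected libraries, and did not pass the filter.

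Tcstv1 and Tcstv3, short genes induced together with Zscan4, differed by 2.46 and 2.39 on the log2 scale. Tcstv1 reached 1290 CPM in A10, with an IgG median of 51.8 CPM against 27.6 CPM. Gm2016, of a chromosome 12 gene cluster, had medians of 87.3 and 34.1 CPM and a difference of 2.95 (1.22 without). B020004J07Rik, a Pramel-type gene, was at 84.9, 176 and 1116 CPM in IgG and 35.5, 66.4 and 188 CPM in uninjected libraries (2.04, SE 0.48, edgeR adjusted p = 0.121; 1.04 without). Its 10 IgG libraries all lay above the uninjected median.

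Sp110, an interferon-inducible nuclear body protein with high RNA at this stage, was at 476, 845 and 2218 CPM in IgG and 505, 633 and 905 CPM in uninjected libraries (log2 fold change 0.63). Obox6, a homeobox gene, was at 81.9, 551 and 892 CPM and at 298, 419 and 601 CPM (0.36), with its highest library in F10. Zfp352 was at 102, 246 and 970 CPM and at 19.1, 88.8 and 268 CPM (1.47, SE 0.44; 0.92 without). C87414 was the 1 member with a negative difference (-0.12).

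**Figure D3:**
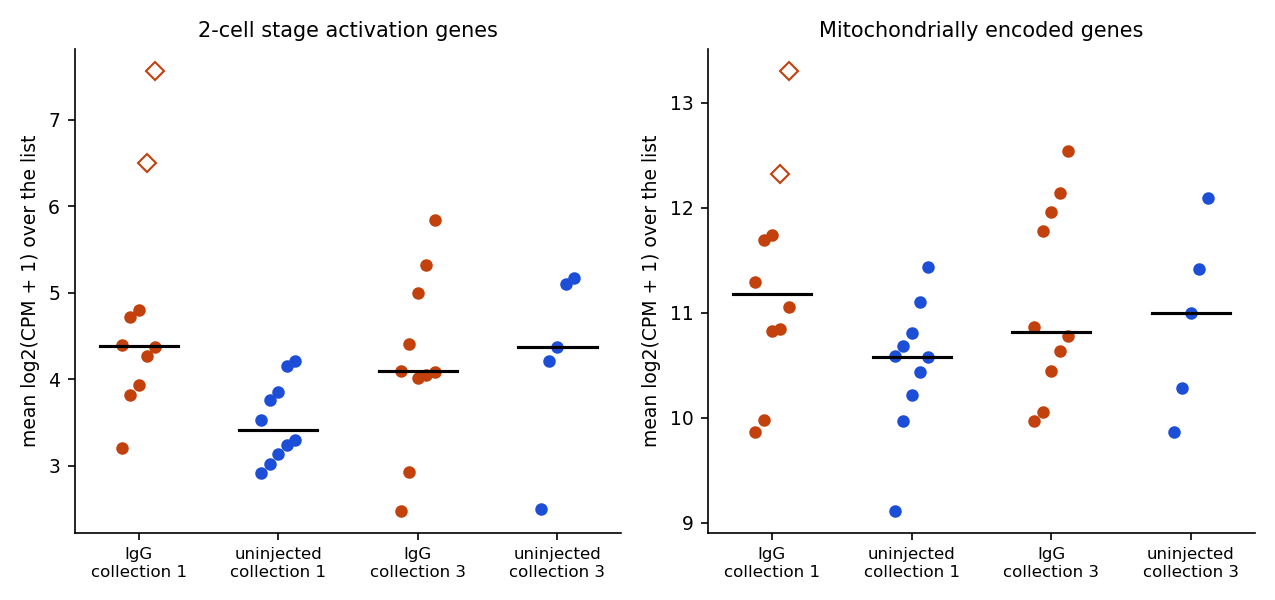
Mean log2(CPM + 1) over the 2-cell activation list (left) and the mitochondrially encoded genes (right), 1 point per library, for IgG and uninjected embryos of collections 1 and 3; bars are medians and open diamonds are IgG wells A10 and H09 of collection 1. A10 and H09 sit at 7.56 and 6.50 in the left plot, above the other IgG libraries, and the 10 uninjected libraries of collection 1 run from 2.92 to 4.21.

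Mitochondrially encoded transcripts, the messages of the respiratory chain made inside the mitochondrion, had a median of 0.97, with 13 of 13 above 0. Only the 3 tested Y-linked genes and Xist, which depend on the sex of the embryos, came between this list and the 2-cell genes (median 1.03). In edgeR 0 of 13 passed and 9 were higher at an unadjusted p under 0.05 (69.2%, against 7.15% of all genes), while DESeq2 called 4 (1.17% of all genes were called higher). The mean log2(CPM + 1) was 13.3 in A10 and 12.3 in H09, at most 11.7 in the other IgG libraries and 9.11 to 11.4 in uninjected ones. In the IgG group 4 of 10 libraries lay above the highest uninjected library. Leaving out A10 and H09 gave a median of 0.42, with 12 of 13 above 0. The highest IgG value was in A10 for 11 of the 13 genes and in H09 for the remaining 2.

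Cytochrome b, mt-Cytb, was at 16168, 29886 and 124926 CPM in IgG and 11278, 15494 and 32599 CPM in uninjected libraries (log2 fold change 1.41, SE 0.36, edgeR adjusted p = 0.138; 0.67 without the pair). All 10 IgG libraries lay above the uninjected median of mt-Cytb. The cytochrome oxidase subunit mt-Co3 differed by 2.19 (SE 0.56) and the complex I subunit mt-Nd4 by 1.29 (SE 0.35).

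Both lists had their highest means in A10 and H09, the libraries of lowest similarity and highest mitochondrial share. Among the other libraries the 2-cell mean and that share went together in some and not in others. Uninjected B09, at 17.9%, had a mean of 3.25, and uninjected D09, at 6.21%, had 4.21. IgG library B10, at 16.7%, had 4.72, and uninjected F08, at 5.74%, had 3.13. The relation was not tested. The part of these measures in the list medians was not tested.

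**Figure D4:**
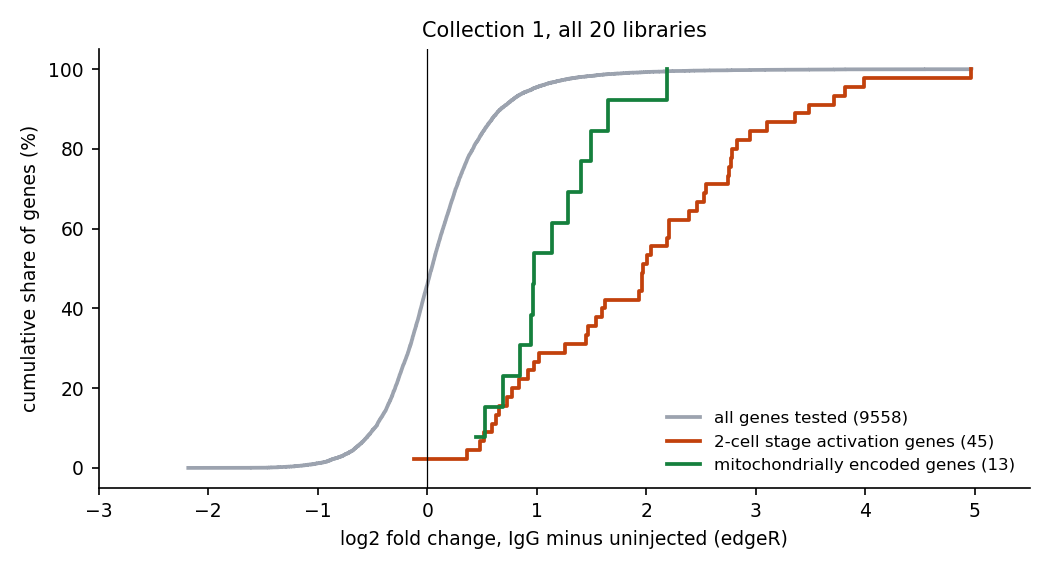
Cumulative share of genes (y axis, %) by edgeR log2 fold change, IgG minus uninjected (x axis), for all 9558 genes tested, the 45 genes of 2-cell activation and the 13 mitochondrially encoded genes in all 20 libraries. The 2-cell curve crosses 50% near its median of 1.97 and the mitochondrial curve near 0.97, whereas all genes cross near 0.04.

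Among the lists for injury and antibody response, the 23 tested immediate early and wounding genes, which cells switch on within minutes of injury, had a median of 0.73 with 20 above 0. Of the 23, 4 were higher at an unadjusted p under 0.05 (17.4%, against 7.15% of all genes) and 0 passed in edgeR. DESeq2 called 1, with its highest IgG value in A10 or H09, where it called 1.17% of all genes higher. The median was 0.08 without A10 and H09, with 14 of 23 above 0, against 50.6% of all genes. Klf10, an early response zinc finger gene, was at 2.73, 10.6 and 301 CPM in IgG and 1.48, 8.81 and 21.4 CPM in uninjected libraries (log2 fold change 3.00; 0.99 without). Btg1, an antiproliferative gene, differed by 0.94 and by 0.30 without the pair.

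Interferon response and innate sensing genes had a median of 0.13 over 25 tested, with 14 above 0 and 1 higher at an unadjusted p under 0.05 (4%, against 7.15% of all genes), and 0 passed in edgeR or DESeq2. Myd88, an adaptor of Toll-like receptors, was at 3.52, 9.89 and 110 CPM in IgG and 1.10, 6.42 and 17.1 CPM in uninjected libraries (log2 fold change 1.46; 0.23 without A10 and H09). Irf7, a transcription factor of the interferon response, differed by 1.60 with all libraries and by -0.55 without the pair. The 16 tested genes of TRIM21 and cytosolic antibody handling had a median of -0.03, with 7 above 0, 0 at an unadjusted p under 0.05 and 0 passing in edgeR or DESeq2. Vcp, the segregase of the ubiquitin system, was the member with the lowest p (log2 fold change -0.35, unadjusted p = 0.111).

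Proteasome subunit genes had the lowest median of the lists, -0.22, with 8 of 44 above 0, against 54% of all genes. Of the 44, 3 were lower (6.82%, against 2.68% of all genes) and 0 higher at an unadjusted p under 0.05, and 0 passed in edgeR or DESeq2. Psmc4, an ATPase of the regulatory particle, was at 7.84, 27.6 and 52.3 CPM in IgG and 27.4, 55.9 and 76.2 CPM in uninjected libraries (log2 fold change -0.89, SE 0.30, edgeR adjusted p = 0.263). Psmb6, a catalytic subunit, differed by -1.15, from a median of 92.8 CPM in uninjected to 43.9 CPM in IgG libraries. For both genes, 0 of 10 IgG libraries lay above the uninjected median. The list median was -0.12 without A10 and H09, with 13 of 44 above 0.

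Membrane repair and cortical cytoskeleton genes had a median of -0.14, with 11 of 37 above 0, and -0.28 without A10 and H09, with 15 of 38 above 0. Of the 37, 3 were lower (8.11%, against 2.68% of all genes) and 0 higher at an unadjusted p under 0.05. Without the pair 6 of 38 were lower, against 3.09% of all genes. Myh9, the heavy chain of cortical myosin II, was at 7.90, 19.4 and 37.8 CPM in IgG and 20.3, 33.7 and 53.5 CPM in uninjected libraries (log2 fold change -0.76). Actr2, a subunit of the actin-branching Arp2/3 complex, differed by -0.55, and 6 of 10 IgG libraries lay below the lowest uninjected one for each gene.

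Maternal transcripts had a median of -0.15, with 34 of 90 above 0, against 54% of all genes, and 5 lower at an unadjusted p under 0.05 (5.56%, against 2.68% of all genes). With A10 and H09 left out the median was -0.23, with 23 of 91 above 0 and 9 lower, against 50.6% and 3.09% of all genes. Btg4, an adaptor that drives maternal RNA decay, was at 176, 377 and 540 CPM in IgG and 288, 525 and 970 CPM in uninjected libraries (log2 fold change -0.58). Oosp1, an oocyte-secreted protein, was at 197, 420 and 727 CPM and at 374, 642 and 1018 CPM (-0.63), and Bcl2l10, an oocyte member of the BCL2 family, differed by -0.71. In each case the IgG median lay below the uninjected one and the groups overlapped.

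For growth and division, cytosolic ribosomal protein genes had a median of 0.00 over 79 tested (0.17 without A10 and H09, 65 of 79 above 0, against 50.6% of all genes). Ribosome biogenesis genes had 0.07 over 67, with 7 higher at an unadjusted p under 0.05 (10.4%, against 7.15% of all genes). Among the 7 was Nop58, a snoRNP core protein, with medians of 533 and 342 CPM (log2 fold change 0.63). The 62 genes of G2 phase and mitosis had a median of 0.13, with 43 above 0 and with 10 higher and 0 lower at an unadjusted p under 0.05 (16.1%, against 7.15% of all genes). Leaving out the pair also gave 10 higher and 0 lower of 62, against 4.67% of all genes higher. Top2a, the topoisomerase of chromosome condensation, was at 171, 523 and 1388 CPM in IgG and 198, 289 and 568 CPM in uninjected libraries (log2 fold change 0.91, SE 0.28). Wee1, the kinase that holds cells in G2, is listed both there and under the DNA damage checkpoint and differed by 0.85, with 9 of 10 IgG libraries above the uninjected median.

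Stress and death lists stayed near 0 in the median: heat shock 0.14, unfolded protein response -0.05, p53 targets 0.11, oxidative stress 0.01 and apoptosis -0.05. The early activation list of translation and RNA genes had 0.22 with 27 of 42 above 0. DNA replication (0.04), autophagy and lysosome (0.04), glycolysis (0.14), early transcription factors (0.08), ISWI remodellers (0.05) and chromatin repression (0.05) had medians between 0.04 and 0.14. In these 12 lists 0 genes passed in edgeR, and DESeq2 called 1 gene each of the unfolded protein, p53 and apoptosis lists. The call of the p53 list and that of the apoptosis list were the same gene, Pmaip1. For each call the highest IgG value was in A10 or H09, and DESeq2 called 1.17% of all genes higher. At an unadjusted p under 0.05, at most 6 genes a list were higher and at most 2 lower. The share higher ran from 0% (glycolysis and ISWI) to 14.3% (early activation), against 7.15% of all genes. It was 10.8% to 12% for the stress and death lists. The share lower was at most 8.33% (ISWI, 1 gene of 12), against 2.68% of all genes.

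**Figure D5:**
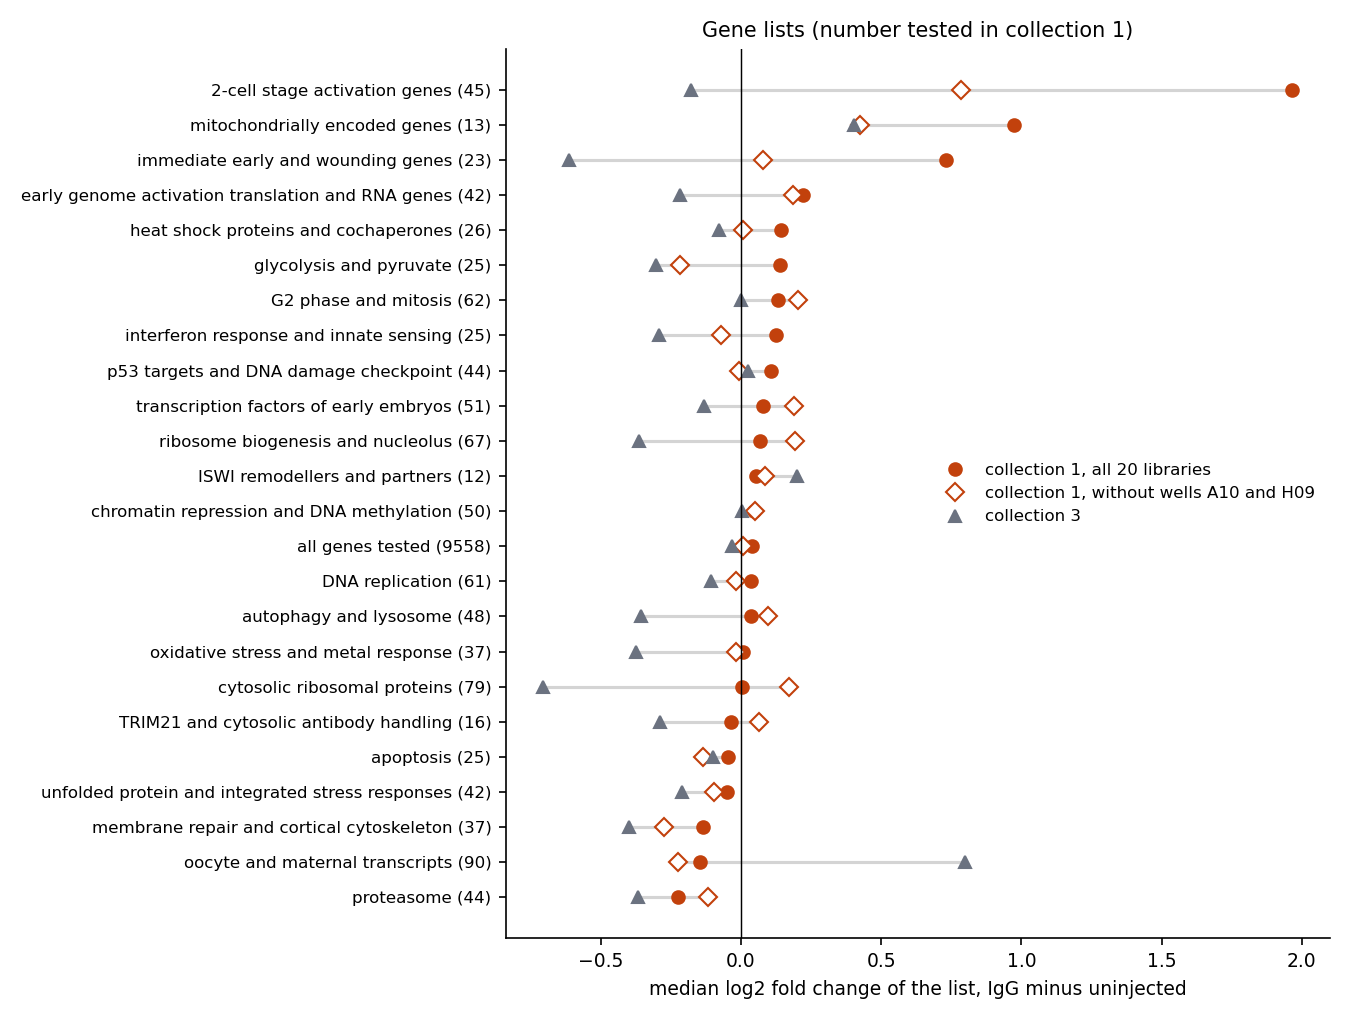
Median log2 fold change, IgG minus uninjected (x axis), of each gene list, with the number of genes tested in collection 1 beside its name, for all 20 libraries of collection 1 (filled circles), without wells A10 and H09 (open diamonds) and for collection 3 (triangles). The 2-cell list has a median of 1.97 with all libraries, 0.79 without the 2 wells and -0.18 in collection 3, while maternal transcripts have -0.15 and 0.80 in collections 1 and 3.

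Collection 3 holds the same labels on other embryos: 10 IgG and 5 uninjected libraries, with Trim21 counts in 8 of the IgG libraries. In edgeR 0 of 9348 genes passed there, with 916 at an unadjusted p under 0.05 (9.8%), of which 7.08% of the tested genes were higher and 2.72% lower, and DESeq2 called 6. The 2-cell list had a median of -0.18, with 22 of 53 above 0, against 48.3% of all genes. Its mean ran from 2.48 to 5.84 in IgG and from 2.51 to 5.17 in uninjected libraries, which overlapped. Maternal transcripts had a median of 0.80 with 65 of 87 above 0, and ribosomal protein genes -0.70 with 3 of 79 above 0. In collection 1 the same lists had -0.15 and 0.00.

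The difference between the collections was itself tested as an interaction. It passed for 2 of 12282 genes (0.0163%) in edgeR, Usp47 and Lyz2, with 1169 at an unadjusted p under 0.05 (9.52%). Of 58 genes of 2-cell activation tested, 0 passed. At an unadjusted p under 0.05, 32 had a higher log2 fold change in collection 1 than in collection 3. Of 95 maternal transcripts 0 passed and 31 had a lower one. Of the 9558 genes tested in collection 1, 338 had a higher log2 fold change there and 554 a lower one at the same unadjusted threshold. Collection, the presence of Trim21 RNA and the number of uninjected libraries differ together between the collections, and their parts cannot be told apart. AC165327.2 differed by 0.53 in collection 3 (unadjusted p = 0.404).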

How the data were processed

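RNA-seq counts per gene were analysed for the 20 libraries of collection 1 and, for comparison, 15 of collection 3. The authors deposited raw counts in a lane table of 76 libraries; per the file headers reads were mapped with HISAT2 to GRCm38 with ERCC sequences. Trim Galore 0.6.5, cutadapt 2.3 and HISAT2 2.1.0 are named per the submitters' processing notes. The counting tool, strand setting and annotation are not given in the sources used here. Odd counts outnumbered even ones (22478 values of 1, 4840 of 2, 14229 of 3 and 3843 of 4), a property of the deposited counts whose origin was not tested. The 25965 lines held 25900 genes after lines of the same identifier were summed. A library with 89203 counts (uninjected) and one with 0 (IgG) were left out. No pair of libraries differed by as little as sampling noise (lowest chi-square per degree of freedom 6.61).

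Genes were filtered with filterByExpr and tested with edgeR 4.0.16 (R 4.3.3; TMM, robust quasi-likelihood, Benjamini-Hochberg threshold 0.05), IgG minus uninjected. SE is the size of the fold change divided by the root of F. Library values were compared by two-sided permutation (100000 resamples). Levels use a pseudocount of 1 where logged. Alternatives used DESeq2 1.42.0, limma 3.58.1 with voom quality weights, other scalings, filters and depths, thinning, and leaving out each library; those without wells A10 and H09, and without G10 and D09 as well, were added after seeing the data. The model code was tested on simulated data. Named genes were Smarca5, Smarca1, Trim21, the called genes filled up to 10 per direction by lowest p (average log2 CPM 4 or more, over 3 counts in a share of 0.8 of the higher group's libraries) and up to 4 lowest p per list. The members and lists were chosen with earlier results of these data known. Of 1248 list entries 1236 matched a gene of the table. Sequences are from RefSeq (GRCm38.p6).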

Additional observations from a re-analysis of the deposited data

Results flagged for a closer look

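In 70 sets of library values (1 gene, list or measure in 1 group), 11 had an end library far from the rest. Chance gives about 1 in 20 only for independent sets of roughly normal values. These sets share libraries, and some rest on few counts, such as 3 for Trim21 in A09. The 11 can therefore not be set against that rate. Well A10 (IgG) was far from the others in Smarca1, with a log2(CPM + 1) of 3.90 against 0.59 in the next library, in the mean of the ribosome biogenesis list (5.66 against 6.77), in that of the interferon list (2.89 against 2.23) and in similarity to its group (0.579 against 0.691). Well G10, the shallowest IgG library, had the lowest log2(CPM + 1) of Odf2 (2.38 against 4.63) and of Vamp3 (0 against 2.45). Among uninjected libraries, E09 was far from the rest in Smarca1 (0.57 against 0), A09 in Trim21 (1.56 against 0.55), F08 in Clk1 (5.86 against 6.63) and B09 in Dnajb9 (10.54 against 9.78) and in genes detected at 100000 counts (9020 against 9325).

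The IgG effect differed between collections 1 and 3 for 2 genes in edgeR. For Usp47, a deubiquitinase, the difference was -2.16 on the log2 scale (adjusted p = 0.0487): in collection 1 it was at 42.0, 79.5 and 141 CPM in IgG and 98.2, 144 and 199 CPM in uninjected libraries (-0.74, SE 0.23), and in collection 3 the medians were 191 and 87.7 CPM. For Lyz2, a lysozyme, it was 10.99 (adjusted p = 0.0390), with IgG values of 0, 0.66 and 59.2 CPM in collection 1, highest in A10, and uninjected values with a median of 0 and a highest of 1.94 CPM. In collection 3 the Lyz2 medians were 0.30 CPM in IgG and 11.9 CPM in uninjected libraries. Without A10 and H09 neither collection difference passed.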

How the results depend on the processing

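The count of called genes in collection 1 (1 in edgeR) was 116 with DESeq2, 3 without the low-count filter and 3 in 1 fit of all TrimAway groups. The 3 genes of that fit were Slco1b2, CT025616.1 and Skint2, and AC165327.2 was not among them. The count was 0 with voom weights, total counts, a minimum of 500000 counts and thinning. Without A10 and H09, and without A10, H09, G10 and D09, it was also 0. Leaving out 1 library gave 0 to 4. DESeq2 called 6 genes in collection 3, where leaving out 1 library gave 0 to 0. The collection difference (2 genes) was 24 genes with DESeq2, 1 with its size factors in edgeR, and 0 without the filter, at 500000 counts and without A10 and H09. The 2-cell median (1.97) was 0.82 with voom, 0.75 after thinning, 0.79 without A10 and H09 and 0.78 without 4 wells, and 1.07 to 2.17 leaving out 1 library; the mitochondrial median (0.97) was 0.47 with voom, 0.61 with total counts, 0.42 without A10 and H09 and 0.34 without 4 wells, and 0.73 to 1.12 leaving out 1 library. Genes detected at 100000 counts differed by -399.65 without A10 and H09 and -467.5 at 5 counts, where it passed, and -493.178 to -318.4 leaving out 1 library; the mitochondrial share differed by 3.96 to 6.93, the top-100 share by 4.47 to 7.38 and similarity by -0.12 to -0.06. The sign turned for the log2 fold change of Rpl23 after thinning (-0.020), for Irf7 with voom (-0.28) and without 2 or 4 wells (-0.55, -0.30), for Psmd4 (0.045, 0.13) and Lig1 (-0.29, -0.44) without 2 or 4 wells, and for Mycn with voom (-0.16); the cause was not tested. Of single-gene values 3242 kept their direction and side of the threshold, 29 gained and 17 lost a call. All 17 losses were of AC165327.2, in 17 of its 30 alternatives. No paired analysis was possible because both groups come from 1 collection and their numbers only name wells. In the shallowest library, G10, 3 counts correspond to 12.7 CPM, so lower levels rest on 1 or 2 counts.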
